A study of Mus musculus with 12 samples.

Results

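Irx1, Irx2, Pou3f4, Hhex, Neurog3, Pax4, Sox9, Hes1 and Ptf1a encode transcription factors of pancreatic cells other than β cells, or of progenitors shared with β cells. The 9 genes, of 21755 protein-coding genes considered, were chosen by name, and every cJun and H3K4me3 peak within 50 kb of a gene body was taken. This gave 35 of the 44996 peaks in the 4 peak lists. The peaks came from CUT&RUN, in which an antibody-tethered nuclease releases the DNA it is bound to, in Min6 cells, which derive from a mouse insulinoma and stand in for β cells. Cells were exposed for 48 h to DMSO, the solvent control, or to 20 µM SP600125, which inhibits the kinases that phosphorylate cJun (JNKi). In both treatments an antibody against the transcription factor cJun, an antibody against H3K4me3 as positive control and an IgG as negative control were used, which makes 12 samples in 6 groups of 2 biological replicates. Each of the 4 lists (cJun and H3K4me3, in DMSO and JNKi) holds the peaks called in both replicates of its group, so a gene without a listed peak may still have had one in a single replicate.

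The cells of the pancreas arise from shared progenitors, and each lineage keeps its own set of transcription factors. Neurog3 starts the endocrine program, Pax4 favours the β and δ cell fates, and Irx1, Irx2 and Pou3f4 (Brn4) are found in glucagon-producing α cells. Hhex is a factor of somatostatin-producing δ cells, Sox9 and the Notch target Hes1 mark ducts and progenitors, and Ptf1a drives acinar cells. H3K4me3, trimethylation of lysine 4 of histone H3, is placed at the start sites of active or poised genes, above all where CpG dinucleotides are dense. cJun is a subunit of AP-1, which binds the letters TGACTCA or TGAGTCA.

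The sequences just upstream of the start sites show how much the genes differ in CpG content. RefSeq promoter sequences of the GRCm38.p6 build were matched for 5 of the 9 genes (Irx2, Pou3f4, Hhex, Neurog3 and Ptf1a) and not for Irx1, Pax4, Sox9 and Hes1. Each is printed 5′ to 3′ up to the base before the first annotated start, with every CpG in capitals. Irx2 and Pou3f4 carried promoter H3K4me3 and the other three did not.
Irx2 promoter, chr13:72628570-72628819 (+): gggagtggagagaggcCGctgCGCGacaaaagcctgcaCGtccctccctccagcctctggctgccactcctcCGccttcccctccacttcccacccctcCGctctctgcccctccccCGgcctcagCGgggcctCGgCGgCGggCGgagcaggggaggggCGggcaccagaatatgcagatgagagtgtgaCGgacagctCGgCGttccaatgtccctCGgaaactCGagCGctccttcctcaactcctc
Pou3f4 promoter, chrX:110814129-110814279 (+): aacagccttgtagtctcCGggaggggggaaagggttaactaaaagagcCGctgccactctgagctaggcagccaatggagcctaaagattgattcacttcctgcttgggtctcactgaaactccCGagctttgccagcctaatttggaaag
Hhex promoter, chr19:37434591-37434809 (+): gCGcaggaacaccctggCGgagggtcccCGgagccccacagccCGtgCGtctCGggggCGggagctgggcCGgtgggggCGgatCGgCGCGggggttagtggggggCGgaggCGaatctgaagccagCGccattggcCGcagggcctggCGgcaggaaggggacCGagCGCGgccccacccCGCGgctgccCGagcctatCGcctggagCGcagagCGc
Neurog3 promoter, chr10:62132840-62133089 (+): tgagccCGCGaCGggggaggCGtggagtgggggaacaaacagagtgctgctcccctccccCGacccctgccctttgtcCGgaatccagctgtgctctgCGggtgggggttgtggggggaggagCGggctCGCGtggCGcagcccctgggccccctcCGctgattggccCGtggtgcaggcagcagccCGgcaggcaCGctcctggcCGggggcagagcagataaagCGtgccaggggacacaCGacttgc
Ptf1a promoter, chr2:19445413-19445662 (+): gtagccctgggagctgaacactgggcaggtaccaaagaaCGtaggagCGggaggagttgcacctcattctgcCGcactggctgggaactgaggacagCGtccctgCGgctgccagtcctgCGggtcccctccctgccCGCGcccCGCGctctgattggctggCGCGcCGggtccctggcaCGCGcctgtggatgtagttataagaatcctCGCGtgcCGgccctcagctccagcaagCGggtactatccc
The Hhex sequence held 26 CpGs in 219 bases, the Irx2 and Ptf1a sequences 19 each in 250 bases, and the Neurog3 sequence 18 in 250 bases. The Pou3f4 sequence, of 151 bases, held 3. Motifs were searched on both strands. Neither AP-1 site nor the CRE, TGACGTCA, occurred in any of the 5 sequences, while 5.20% and 1.79% of all 32851 promoters in the table held them between 250 bases before and 50 bases after the start. TGGGAA, the core letters bound by the Notch effector RBPJ, occurred in Irx2 and Ptf1a and in 25.6% of all promoters. The N box CACNAG, a target of Hes proteins, occurred in Irx2 and in 42.5% of all promoters, and its match did not overlap the TGGGAA match. TATAAA was in none of the 5 and in 13.6% of all.

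H3K4me3 lay at the promoters of Irx1, Irx2, Pou3f4 and Hes1, and not at those of Hhex, Neurog3, Pax4, Sox9 and Ptf1a. A promoter was taken as 1 kb on either side of any annotated start. These 4 of 9 genes were the same in DMSO and in JNKi. Among all protein-coding genes, 59.3% had a promoter peak in DMSO and 58.7% in JNKi. Within 50 kb of the gene body, 6 of 9 genes had an H3K4me3 peak in each treatment, against 78.3% of all genes in DMSO and 77.9% in JNKi. Each H3K4me3 list held 12 such peaks, and all 12 overlapped one of the other treatment by at least 1 bp, as did 93.4% of all DMSO and 94.3% of all JNKi H3K4me3 peaks. Of the 12, 8 had a named gene as the nearest protein-coding start and 4 lay at starts of other genes.

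**Figure D1:**
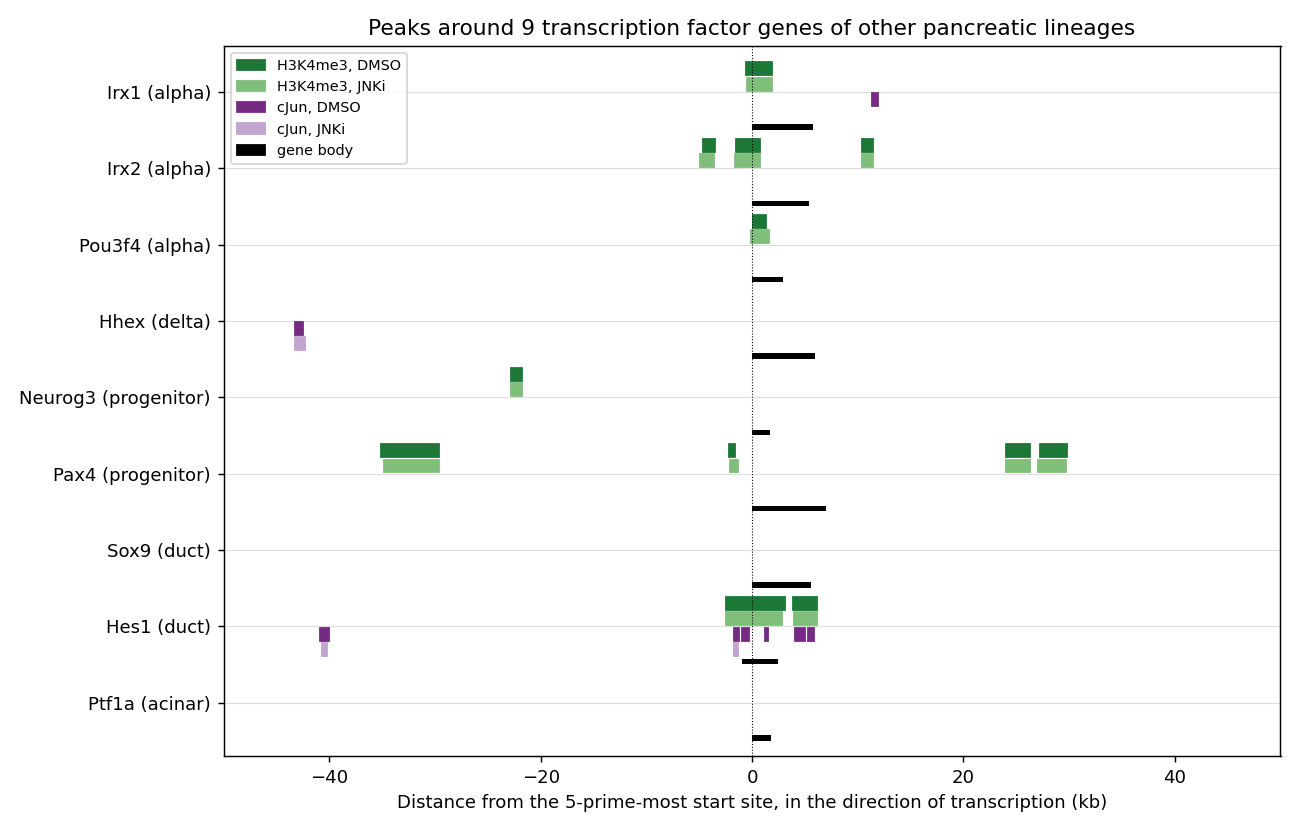
Peaks within 50 kb of the 9 genes, drawn by distance in kb from the 5′-most start site in the direction of transcription, with H3K4me3 (green) and cJun (purple) in DMSO (dark) and JNKi (light) and the gene body in black. Sox9 and Ptf1a have no peak in this window, and Hes1 has the most.

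The unmarked genes Hhex, Sox9, Ptf1a and, at a lower ratio, Neurog3 had a CpG content at which most genes are marked. The ratio of observed to expected CpG was taken within 500 bp of the 5′-most start, and a start was called CpG-rich at a ratio of at least 0.6 with at least 50% GC. By this measure Irx1 (ratio 0.898), Irx2 (0.917), Pou3f4 (0.678), Hhex (0.921), Sox9 (0.804) and Ptf1a (0.731) were CpG-rich. Neurog3 (0.506) and Pax4 (0.0517) were below the ratio, although 1325 of the 1671 genes with a ratio from 0.5 to 0.6 were marked in DMSO, and Hes1 (0.669) was left out by its GC content of 45.8%. Of the 10085 CpG-rich genes in the genome, 92.8% carried promoter H3K4me3 in DMSO and 92.1% in JNKi, and 7.06% carried none in either list. Hhex, Sox9 and Ptf1a, 3 of the 6 CpG-rich genes named here, belonged to that last class. Among the further factors counted below, all CpG-rich ones from outside the pancreas except Cdx2 were also unmarked in DMSO. Most of the 26 CpG-rich factors of other pancreatic lineages counted there were marked. Of the 11670 genes that were not CpG-rich, 30.3% were marked in DMSO, and Hes1 was among them. The count of 3 was the same with the ratio alone and became 2 of 4 when a ratio of 0.75 and 55% GC were asked for, where 5.01% of genes were unmarked. With 9 genes chosen by name these counts are a description, and no test was made.

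**Figure D2:**
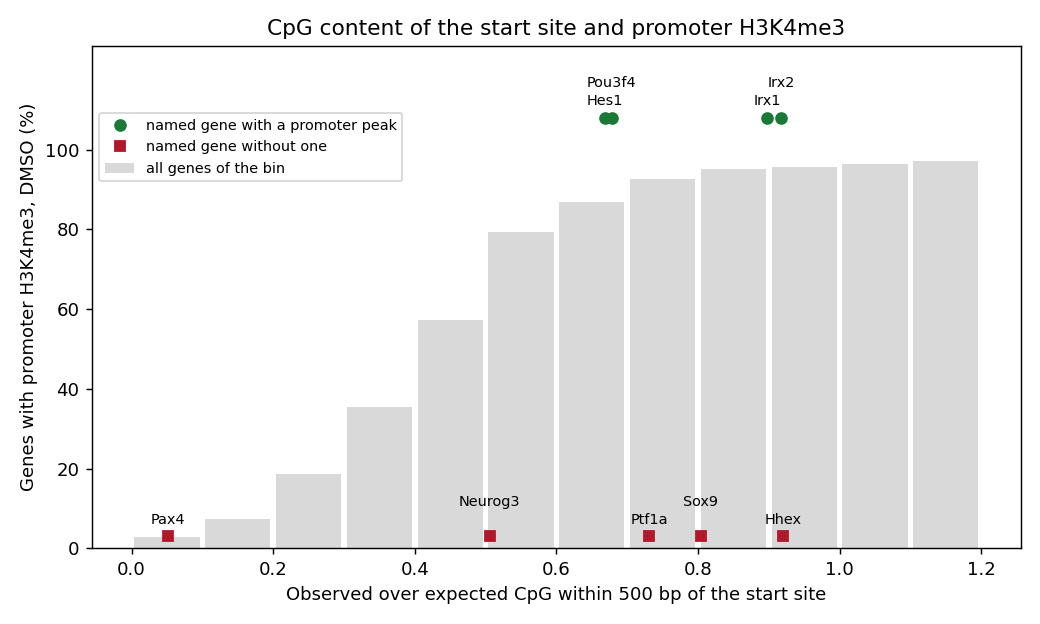
Share of genes with promoter H3K4me3 in DMSO (%, bars) by observed over expected CpG within 500 bp of the start, in bins of 0.1 that hold at least 20 genes. Circles above the bars mark the 4 named genes with a promoter peak and squares near the axis the 5 without; Neurog3, Ptf1a, Sox9 and Hhex sit in bins where most genes are marked.

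Of the α cell factors, all 3 carried the mark. Each was CpG-rich, a class of which 92.8% was marked in DMSO. Irx1 (chr13:71957921-71963723, minus strand), an Iroquois homeobox gene, had a single peak from 547 bp upstream to 1916 bp downstream of its start in DMSO. The first and second replicate column, which carry no replicate number, gave widths of 2464 bp and 2147 bp in DMSO, and of 2174 bp and 2375 bp in JNKi. The widths of the treatments overlapped. The −log10 p given by the peak caller was 81.6 and 54.3 in the DMSO replicates and 86.5 and 68.5 in JNKi. Depth enters this p, and the depth reached by each library is unknown here, so that it can be ordered within a list only. On the lower of the replicate values the Irx1 peak stood at percentile 42.1 of the DMSO list and 42.8 of the JNKi list. These lists also hold peaks away from promoters. Among genes with a promoter peak, 16.7% in DMSO and 16.8% in JNKi had a lower value than Irx1. The shares were 10.8% and 9.50% for Irx2, 2.73% and 7.15% for Pou3f4, and 72.0% and 67.9% for Hes1.

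Irx2, the neighbour of Irx1 in the Iroquois cluster (chr13:72628820-72634198, plus strand), had 3 peaks in each treatment. The promoter peak was 2217 bp and 2233 bp wide in DMSO and 2396 bp and 2341 bp in JNKi, so both JNKi values were above both DMSO values. It also covered the start of Gm20554, a long noncoding RNA transcribed away from Irx2. The merged peaks differed by a ratio of 1.06 (JNKi over DMSO). Another 2 peaks, with no annotated start beneath them, lay 3495 bp upstream and 10408 bp downstream of the Irx2 start in DMSO and 3644 bp upstream and 10433 bp downstream in JNKi. The downstream peak (chr13:72639228-72640293) had the higher −log10 p of these 3 in both treatments, 39.7 and 41.9 in the DMSO replicates against 24.4 and 31.6 at the promoter.

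Pou3f4, a POU-domain factor (chrX:110814280-110817207, plus strand), had the weakest promoter peak of the 4. In DMSO it was 1182 bp and 1153 bp wide in the replicates, with −log10 p values of 6.29 and 15.2, and began 104 bp downstream of the start. In JNKi it was 1556 bp and 1470 bp wide, with −log10 p values of 14.3 and 18.2, and covered the start. Both JNKi widths were above both DMSO widths. The ratio of the merged widths was 1.49, and 1.02% of genes marked in both lists had a ratio as high. The merged JNKi interval spans replicate intervals that share 1234 bp and have summits 875 bp apart. The mean replicate widths gave a smaller ratio of 1.30, which 2.00% of these genes reached. The irreproducible discovery rate (IDR), which rates how well a peak's rank repeats between replicates, was 0.306 in DMSO and 0.282 in JNKi. These are the highest, or least reproducible, values in the H3K4me3 lists. A limit of 0.05 removes this peak from both lists and leaves 3 marked genes.

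Hes1, a basic helix-loop-helix repressor and Notch target (chr16:30064384-30067796, plus strand), had the widest mark of the 4. Its distances are taken from the start in the basic annotation, which lies 956 bp inside the 5′ end of the gene as the full annotation draws it. The promoter peak was 5546 bp and 5370 bp wide in DMSO and 5274 bp and 5155 bp in JNKi. Both JNKi values were below both DMSO values. It was wider than the promoter peak of 96.8% of marked genes in DMSO and 95.9% in JNKi, where the medians of all marked genes were 2599 bp and 2665 bp. Its −log10 p was 325.7 and 302.0 in the DMSO replicates and 331.7 and 330.6 in JNKi. A separate H3K4me3 peak of 2231 bp in DMSO and 2170 bp in JNKi began 3902 bp and 3965 bp past the start, beyond the end of the gene, with no annotated start beneath it.

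Across the 4 marked genes, replicate widths separated the treatments at 3, with JNKi wider at Irx2 and Pou3f4 and narrower at Hes1. Among the 12709 genes marked in both lists, the replicate widths did not overlap with JNKi wider at 20.6% and with JNKi narrower at 15%. The median ratio over these genes was 1.01. Widths that do not overlap at 2 replicates a treatment are common in these lists, and no test was made on these pairs of values.

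**Figure D3:**
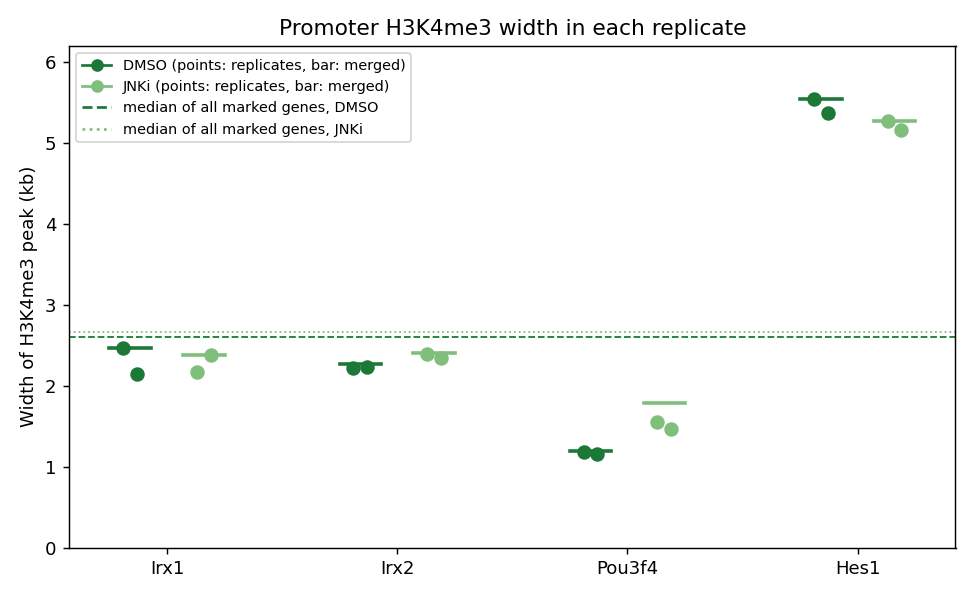
Width in kb of the promoter H3K4me3 peak of Irx1, Irx2, Pou3f4 and Hes1 in each replicate (points) and merged over both (short bars), in DMSO (dark) and JNKi (light). Dashed and dotted lines give the median of all marked genes, 2599 bp in DMSO and 2665 bp in JNKi, with Hes1 above them and the others below.

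The 5 genes without promoter H3K4me3 differed in what surrounded them. Pax4, a paired-homeodomain factor (chr6:28442334-28449353, minus strand), came closest to a call. A peak of 595 bp in DMSO and 750 bp in JNKi lay 1631 bp and 1363 bp upstream of its 5′-most start. Its −log10 p was 7.07 and 13.3 in the DMSO replicates and 7.53 and 4.99 in JNKi. Its IDR was 0.306 and 0.282, again the highest in each list. A promoter of 3 kb on either side counts it, which makes 5 of 9 genes marked in each treatment. The other 3 peaks near Pax4 lay at the starts of Gcc1, Arf5 and Snd1.

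Neurog3, the basic helix-loop-helix factor of endocrine progenitors (chr10:62133090-62134763, plus strand), lies inside Fam241b, a gene of the opposite strand. The peak nearest to its start was 21.8 kb away in both treatments and covered a start of Fam241b. Hhex, a homeobox factor (chr19:37434810-37440731, plus strand), had its nearest H3K4me3 peak 55.5 kb away in DMSO and 54.4 kb in JNKi. For Ptf1a, a basic helix-loop-helix factor (chr2:19445663-19447501, plus strand), the distances were 73.3 kb and 73.5 kb. Sox9, an SRY-box factor (chr11:112782224-112787760, plus strand), had the most distant mark of the 9. Its nearest peak was 319.0 kb away in DMSO and 390.2 kb in JNKi, and 7.07% and 5.86% of genes had their nearest peak at least as far.

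cJun peaks lay near Hes1, Hhex and Irx1 only among the 9 genes. In DMSO, 3 of 9 genes had a cJun peak within 50 kb (28.4% of all genes) and 1 had one at the promoter (6.94%). In JNKi the counts were 2 within 50 kb (12.2% of all genes) and 0 at the promoter (2.51%). The last count becomes 1, Hes1, when the 5′ end of the gene in the full annotation also serves as a start. The peaks numbered 8 in DMSO and 3 in JNKi. Each of the 3 JNKi peaks overlapped a DMSO peak, and 3 of the 8 DMSO peaks overlapped a JNKi peak. The whole cJun list was shorter in JNKi too, 1632 peaks against 4960, with overlap at 72.0% of JNKi and 23.6% of DMSO peaks. An IDR of at most 0.05 left 1 of the 8 DMSO peaks and 0 of the 3 JNKi peaks, while 445 of all 4960 DMSO and 255 of all 1632 JNKi cJun peaks passed it.

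Hes1 held 6 of the 8 DMSO peaks. As many or more lay within 50 kb of 88 genes, or 0.405% of all genes, with 26 as the highest number. The first lay 40030 bp upstream, in an intron of the long noncoding RNA 9030404E10Rik, with replicate values of −log10 p of 11.3 and 18.4. A pair lay just upstream, one 1258 bp from the start with 8.37 and 9.68 and one, inside the promoter, 254 bp from it with 10.1 and 9.94. The latter lies within the gene body of the full annotation. A weak peak 1187 bp past the start, also in the gene body, had 7.16 and 3.95, with an IDR of 0.729, the highest in the list. The last pair lay 4049 bp and 5298 bp past the start, with 16.1 and 7.27 and with 13.2 and 15.98.

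Of these 6, 5 overlapped H3K4me3, 3 in the promoter peak and 2 in the separate peak past the gene. Over the whole DMSO cJun list 53.4% of peaks overlapped H3K4me3. The last peak, with ranks that repeated well (IDR 0.0388), stood at position 356 of 4960 in the list. In JNKi the peak 40 kb upstream was listed with a −log10 p of 8.85 and 8.85, at position 379 of 1632. A peak was listed 1308 bp upstream of the start, or 352 bp upstream of the 5′ end of the gene body, with 3.49 and 12.3, and its replicate intervals shared 54 bp. Its IDR of 0.672 was the highest in the JNKi cJun list. The peak 254 bp upstream, the one 1187 bp past the start and both beyond the gene were not in the JNKi list, while the 2 H3K4me3 peaks beneath them were. Whether cJun was lost at these sites or fell below the calling limit in one replicate cannot be told apart from the lists.

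**Figure D4:**
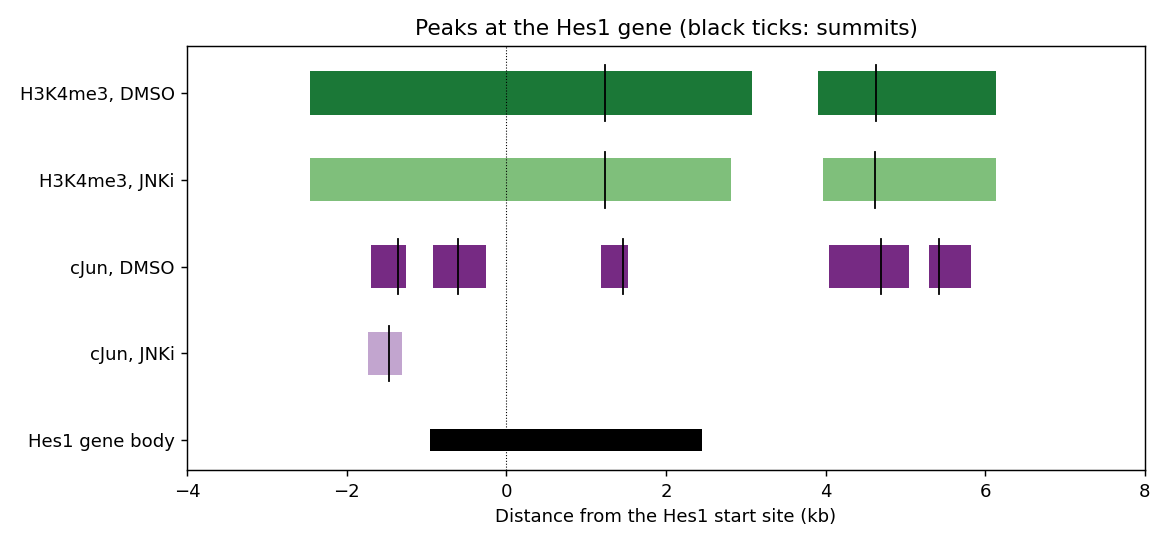
Peaks from 4 kb upstream to 8 kb downstream of the Hes1 start, by distance in kb, with summits as black ticks and the gene body in black. The DMSO cJun row holds 5 peaks and the JNKi row 1, while the H3K4me3 rows hold 2 each.

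Near Hhex a single cJun peak was present in both treatments (chr19:37391523-37392350 in DMSO), 42.5 kb upstream in an intron of Kif11, a mitotic kinesin gene whose start is nearer at 15120 bp. Its −log10 p was 20.6 and 9.40 in the DMSO replicates and 12.6 and 4.39 in JNKi. It was at position 884 of 4960 in DMSO and 1308 of 1632 in JNKi, where its replicate intervals were 878 bp and 324 bp wide. Near Irx1 a peak 11.3 kb past the start, in an intron of Gm40999, was listed in DMSO only. It stood at position 4129 of 4960, with −log10 p values of 4.64 and 4.13, and its replicate intervals shared 169 bp. Its replicate summits lay 494 bp apart, and its IDR of 0.729 was the highest in the DMSO cJun list. Irx2, Pou3f4, Neurog3, Pax4, Sox9 and Ptf1a had no cJun peak within 50 kb in either list. Of these, Neurog3 had the nearest, 59.5 kb from its start in DMSO and 85.6 kb in JNKi. Sox9 had its nearest at 432.1 kb and 432.3 kb, and Ptf1a at 630.3 kb and 447.7 kb.

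Of the 3 DMSO peaks that overlapped a JNKi peak, the Hhex peak and the Hes1 peak 40030 bp upstream held AP-1 letters, and the Hes1 peak 1258 bp upstream held none. The windows around these sites are shown because they are the exact AP-1 matches among the 8 DMSO peaks, with the matches in capitals on the plus strand of GRCm38. After them come the 50 bases on either side of the summit of the promoter peak and of the most reproducible peak of Hes1, neither of which held a match, with the 7 bases nearest to the AP-1 letters in capitals.
Hhex distal peak, chr19:37391947-37392150: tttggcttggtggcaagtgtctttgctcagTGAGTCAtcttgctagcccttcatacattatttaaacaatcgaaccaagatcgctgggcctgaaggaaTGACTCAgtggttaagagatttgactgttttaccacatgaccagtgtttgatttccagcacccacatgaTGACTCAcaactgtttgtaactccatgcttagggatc
Hes1 distal peak, chr16:30024824-30024890: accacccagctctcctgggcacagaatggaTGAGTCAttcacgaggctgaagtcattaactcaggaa
Hes1 promoter peak, chr16:30064682-30064782: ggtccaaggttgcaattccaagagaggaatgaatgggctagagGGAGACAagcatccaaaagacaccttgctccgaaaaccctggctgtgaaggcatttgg
Hes1 downstream peak, chr16:30070708-30070808: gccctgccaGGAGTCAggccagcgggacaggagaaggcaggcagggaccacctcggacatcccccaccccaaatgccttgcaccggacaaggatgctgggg
The Hhex peak held 3 matches, all within 100 bp of its summit in both lists. Peaks with 3 or more numbered 9 in the DMSO list (0.181%) and 7 in the JNKi list (0.429%), while 10% and 12.1% of peaks held at least 1. Of the 3 matches, 2 lay in letters that the RefSeq genome masks as repeats, and 46.3% of the bases within 100 bp of the DMSO summit were masked. The median over the DMSO list was 2.99%, and 2.66% of its peaks were masked over more than 50% of those bases. The Hes1 match lay 163 bp from the DMSO summit and 27 bp from the JNKi summit. Within 100 bp of the summit, 1 of 8 DMSO peaks and 2 of 3 JNKi peaks held a match, and in the whole peak 2 of each did. CRE occurred in none of the 8 and 3 peaks. A match describes the reference letters and does not show what was bound.

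Other factors of these lineages and β cell factors were set beside the 9 genes. Lists of 40 further α, δ, duct, acinar and progenitor factors, 10 β cell factors and 15 factors of tissues outside the pancreas were counted in the same way. Promoter H3K4me3 was present at 29 of the 40 in each treatment, at all 10 β cell factors in both, and at 1 and 2 of the 15. An IDR of at most 0.05 left 9 of the 10 β cell factors in DMSO and 6 in JNKi. The α list, from which some genes were left out, had 4 of 8 in each treatment. In the Iroquois family Irx5 was marked in both treatments and Irx3, Irx4 and Irx6 in neither, although each is CpG-rich. The δ list had 3 of 4, the duct list 10 of 12, the acinar list 4 of 6 and the progenitor list 8 of 10, alike in DMSO and JNKi, and this IDR limit left 5 of the 10 progenitor factors in each. The duct list included the relatives of Hes1 named Hey1, Heyl, Hes3, Hes5, Hes6 and Hes7. The name of a list does not mean that its genes are confined to that lineage. Outside the pancreas Cdx2, an intestinal factor that is also used in islet cells, was marked in both, and Tal1, a blood factor, had a peak of 510 bp in JNKi alone. Lists differ in CpG content and in how many members β cells share, and they were not tested against each other.

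The widths of the marks were set side by side and not tested. For the β cell factors, promoter widths had a median of 10779 bp (DMSO) and 11473 bp (JNKi), with a range from 4602 to 23064 bp and from 4078 to 23050 bp. The medians of the α, δ, duct, acinar and progenitor lists lay between 2312.5 and 3814 bp in DMSO, and their widest marks, 12035 bp at Etv1 and 10698 bp at Foxa2, fell inside the range of the β cell factors. Of the 4 genes described above, Hes1 at 5546 bp was inside this range in DMSO and Irx1, Irx2 and Pou3f4 were below it. cJun was listed at 6 of 10 β cell promoters in DMSO (Pdx1, Nkx6-1, Neurod1, Pax6, Isl1 and Rfx3) and 4 in JNKi (Pdx1, Nkx6-1, Neurod1 and Nkx2-2). Among the 40 factors of other lineages it was listed at 7 in DMSO (Etv1, Bhlhe41, Onecut2, Hey1, Hes3, Foxa2 and Sox4) and 0 in JNKi. Of all genes, 6.94% had a promoter cJun peak in DMSO and 2.51% in JNKi, where the whole cJun list was shorter. Of the Hes and Hey genes in the duct list, Heyl, Hes5, Hes6 and Hes7 had no promoter cJun peak in either treatment.

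**Figure D5:**
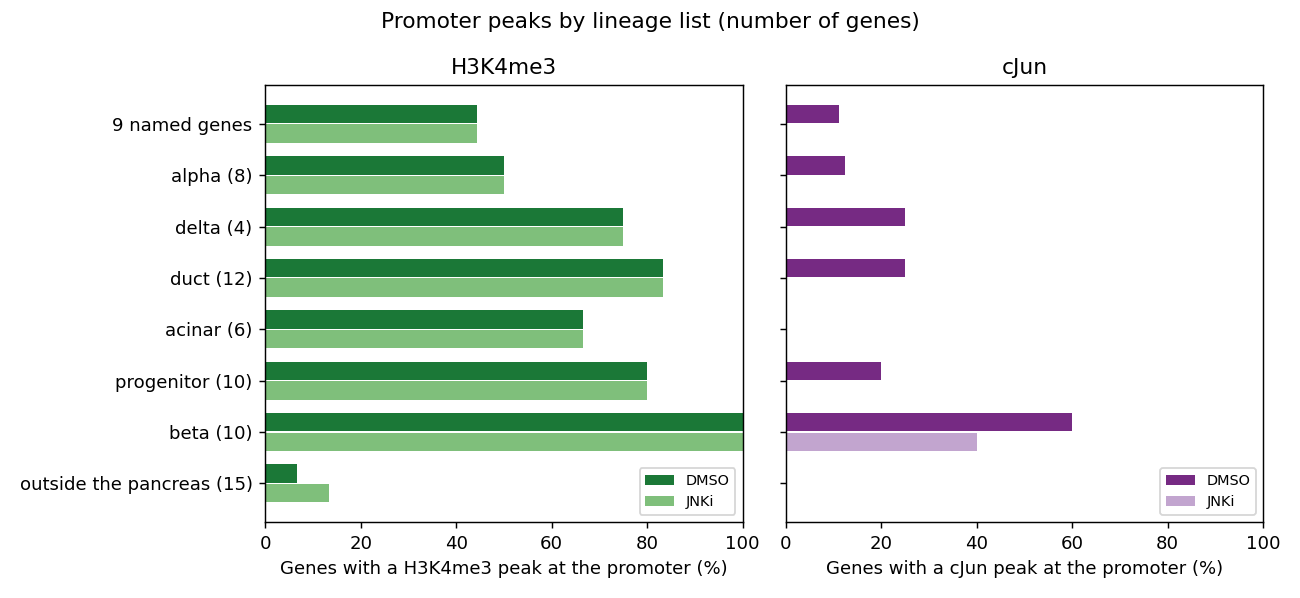
Share of genes (%) with a promoter peak of H3K4me3 (left) and cJun (right) in DMSO (dark) and JNKi (light), for the 9 named genes and for each lineage list with its number of genes. All 10 β cell factors carry H3K4me3, against 4 of the 9 named genes and 1 (DMSO) or 2 (JNKi) of 15 factors from outside the pancreas.

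Marker genes of pancreatic and other cell types were counted in the same lists. Of all genes, 59.3% were marked in DMSO and 58.7% in JNKi, and of those not CpG-rich 30.3% and 29.9%. Promoter H3K4me3 was found at 10 of 11 β cell markers in both treatments, with Ins1 as the exception, and at 0 of 11 acinar, 0 of 2 PP cell, 0 of 3 endothelial and 0 of 3 immune markers. Of the 4 mesenchymal markers Col1a1 was marked in DMSO alone. Of 4 α cell markers all 4 were marked in both treatments, and of 5 δ cell markers 2 were marked in DMSO and 1 in JNKi, the difference being Rbp4. By these counts β and α cells are not told apart. Of 9 duct markers 6 were marked in both. Beside Pdx1 and Nkx6-1, cJun was listed at the promoters of the hormone genes Ins2 and Iapp in DMSO, and of Ins2 and the α cell marker Ttr in JNKi. Irx2, Hhex, Sox9 and Ptf1a are in these marker lists, which are therefore not separate from the genes described. RNA was not measured in these samples, and no expression level is given by the mark.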

How the data were processed

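The 12 CUT&RUN samples of Min6 cells were placed in 6 groups, each with 2 biological replicates, from their titles. Each reaction used 550000 cells and was sequenced with 150 bp read pairs, per the labels. The authors trimmed reads with Trimmomatic, aligned them to GRCm38 with Bowtie2 2.4.2, filtered with SAMtools 1.16, called peaks with MACS2 2.2.7.1 against IgG and paired replicates with IDR. The 4 deposited lists hold −log10 p-values per replicate and merged, a global IDR as −log10, and a score that the authors' IDR step scales from it. The deposited lists are not limited by IDR, and their replicate columns carry no number. The lowest −log10 p was about 3.01 in the 4 lists, a floor in p, whereas MACS2 was run at its defaults according to the methods, and those limit q, so that the setting used is unknown. The labels give a nominal depth, and the achieved depth and read counts were not analysed here. Peaks have values in both replicates, whereas a count of peaks or genes is 1 value per list without replicate error, and no test was made.

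Genes and starts came from the GENCODE vM21 basic annotation on GRCm38, without Y and mitochondrial genes. Windows of 50 kb around gene bodies and 1 kb around starts were overlapped by at least 1 bp. Widths and positions were computed in Python 3.11.15 with numpy 2.4.6 and pandas 2.3.3, and drawn with matplotlib 3.10.9. The steps were tested on simulated data. Motif letters and repeat masking were read from the RefSeq genome of this build. The text names the 9 genes, all their peaks, and listed factors and markers whose promoter call differed between treatments, that carried promoter cJun, or, of β cell lists, that were unmarked. Cdx2, Heyl, Hes5, Hes6, Hes7 and Irx3 to Irx6 were named after their values were seen. Members and lists were chosen with earlier results of these data known, and the CpG measure was added after the data were seen. Some genes of the α cell lists are not reported here and were left out of the counts.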

Additional observations from a re-analysis of the deposited data

How the results depend on the processing

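Over 28 results on the 9 genes, 120 alternatives were computed, and 92 left the value within 1.5 times or within its spread, while 28 moved it. The number of genes with promoter H3K4me3 ranged from 3 to 5 in both treatments. The cJun counts rested on the settings. Genes with promoter cJun in DMSO fell from 1 to 0 at the start base itself and at IDR limits of 0.05 and 0.01, and in JNKi rose from 0 to 1 with a 3 kb promoter or with the gene's 5′ end added as a start, which was chosen after seeing the data. Genes with cJun within 50 kb in DMSO went from 3 to 1 in the gene body alone and at an IDR of 0.05, and to 0 at 0.01. In JNKi they went from 2 to 1 within 10 kb or where the gene was the nearest coding start, to 4 within 100 kb, and to 0 in the gene body and at both IDR limits. The cJun peaks in DMSO went from 8 to 14 within 100 kb, 2 in the gene body, 1 at an IDR of 0.05 and 0 at 0.01, and those in JNKi from 3 to 1 within 10 kb, 5 within 100 kb and 0 in the gene body and at both IDR limits. Shared cJun peaks went from 3 to 0 in each direction at an IDR of 0.05 in both lists. DMSO cJun peaks with an AP-1 site went from 1 to 2 over the whole peak. The H3K4me3 peaks went from 12 to 4 in the gene body in both treatments. The windows and limits account for these moves by keeping fewer or more peaks. In the comparison lists 51 of 56 alternatives kept their value within 1.5 times. At an IDR of 0.05 the β cell list in JNKi went from 10 to 6 marked promoters (in DMSO to 9) and the progenitor list from 8 to 5 in each treatment, and the list from outside the pancreas in JNKi went from 2 to 1 at this limit and at the start base. An IDR limit also removes strong H3K4me3 peaks whose ranks differ between replicates. No paired analysis was possible because the replicate columns carry no number that would tie a DMSO replicate to a JNKi replicate. Counts without one replicate were not computed, since the lists hold only peaks called in both, but the intervals of each replicate column alone were among the alternatives and left the promoter counts as they were.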
